A study of Drosophila melanogaster with 15 samples.

Results

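Embryos lacking pri were compared with embryos lacking shavenbaby (svb) on expression arrays of Drosophila melanogaster, with 5 pri arrays and 5 svb arrays taken from a series of 15. Svb is the transcription factor that directs epidermal cells of the late embryo to build trichomes, hair-like extensions filled with actin that cover parts of the larva. The protein is made as a long repressor. Small peptides encoded by pri trigger the removal of its N-terminal part, which turns it into an activator, so that svb mutants lack the protein whereas pri mutants keep the repressor form. The comparison of the mutants therefore asked what the repressor form adds to the loss of Svb. The pri embryos also lack the Pri peptides themselves. Any effect of that loss apart from Svb cannot be told apart from the repressor form in this design.

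The svb -/- embryos carried the allele svbR9 and the pri -/- embryos the allele pri1. Both were collected at 13 to 15 h after egg laying and picked by hand with fluorescent balancer chromosomes, 200 whole embryos per sample, in 5 independent samples of each genotype, and 5 wild-type (wt) samples of the same stage served as a reference level. Whole embryos hold all tissues, and fewer cells of a type and less RNA per cell cannot be told apart in such samples. The labels give neither the sex of the embryos nor a batch. The mutants came from separate balanced stocks, and any difference in sex or stock background cannot be told apart from the mutations here.

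Gene names were available for 134 probe sets, taken from a deposited table of genes that the study had selected on the same arrays. Entry to that table required a fall in both mutants and a difference of over 2-fold between the mutants, so that the direction of every named gene in this comparison was fixed by its selection and is given as a description. The levels of svb and pri themselves could not be read by name, so that the mutant labels were not checked against the targeted transcripts. Of the markers of muscle, neurons, hemocytes, fat body, midgut, trachea and yolk, 0 were among the named genes, and of 9 epidermal markers 1 was, the transcription factor gene vrille (vri).

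The svb arrays were less alike than the pri arrays. Log2 signals correlated at 0.829 to 0.980 between svb arrays, at 0.940 to 0.981 between pri arrays and at 0.591 to 0.857 across the mutants. Svb replicate 4 stood apart, and without it the svb arrays correlated at 0.933 to 0.980. The median signal was 13.2 ± 2.33 on svb arrays and 16.1 ± 0.882 on pri arrays (SD, n = 5; two-sided exact permutation test, p = 0.0238, adjusted over 4 array measures p = 0.0794). The 3′ to 5′ signal ratio of the GAPDH control, a measure of RNA integrity, was 2.51 ± 0.092 and 2.77 ± 0.198 (SD, n = 5; exact permutation p = 0.0397, adjusted p = 0.0794). The actin ratio was higher, at 3.35 ± 0.424 on svb and 3.22 ± 0.207 on pri arrays (SD, n = 5; exact permutation p = 0.571). That of eIF-4a was the highest, at 5.98 ± 0.459 and 5.90 ± 0.692 (SD, n = 5; exact permutation p = 0.825). The part of these array differences in the results was not tested.

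A large share of the tested probe sets differed between the mutants, and 10215 others were too dim in both to be tested. Of 8554 probe sets bright enough to be tested, 3636 (42.5%) differed at an adjusted p under 0.05 in limma, 1893 lower in pri (22.1%) and 1743 higher (20.4%). Over all tested probe sets the median difference was -0.03 on the log2 scale. Without svb replicate 4, 1696 were lower and 1678 higher. The probe sets that were lower in pri fell by a median of 1.82-fold, from a median signal of 178.7 in svb embryos to 87.6 in pri embryos. Those that were higher rose by a median of 2.29-fold, from 57.3 to 153.

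The number of differences was near balance, but their size was not. At least 2-fold lower in pri were 731 probe sets (8.55%) and at least 2-fold higher 1012 (11.8%). At 4-fold the counts were 114 lower (1.33%) against 480 higher (5.61%), at 8-fold 35 (0.409%) against 207 (2.42%), and at 16-fold 12 (0.14%) against 72 (0.842%). Without svb replicate 4, the 4-fold counts were 111 lower and 379 higher. Many of these folds rest on a dim group, in which MAS 5.0 signals are unstable. With both group means at or above the filter level, a signal of 32, the balance at 2-fold reversed to 527 lower against 499 higher, whereas 56 lower stood against 161 higher at 4-fold and 8 against 47 at 8-fold.

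**Figure D1:**
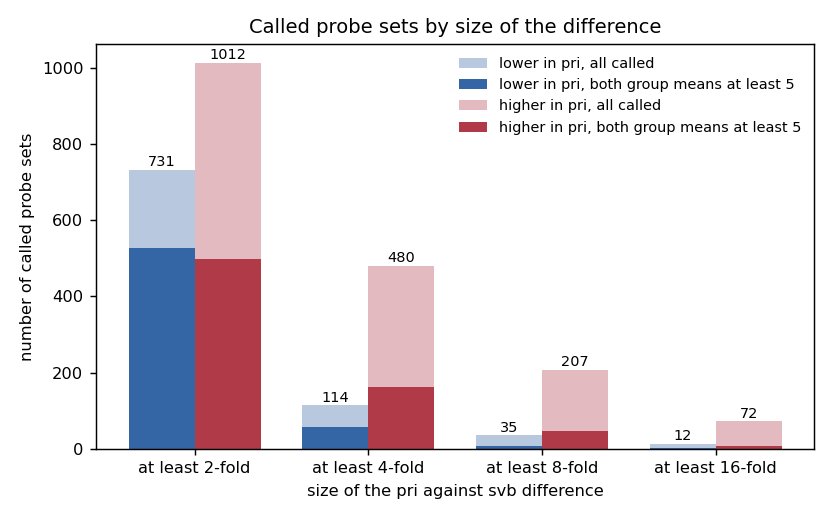
Number of probe sets that passed the limma threshold and differed by at least 2-, 4-, 8- or 16-fold between pri and svb embryos (blue, lower in pri; red, higher in pri), with the part whose group means both reached the filter level in the darker shade. At 4-fold, 480 probe sets were higher in pri against 114 lower, and 161 against 56 with both means at the filter level.

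The wt arrays gave a reference level for each difference. Among the 731 probe sets at least 2-fold lower in pri, the wt mean lay nearer the svb mean than the pri mean in 651, and among the 1012 at least 2-fold higher it did so in 814. At 4-fold these counts were 90 of 114 and 380 of 480. In both directions wt was thus nearer svb embryos than pri embryos for most of the large differences. Both mutants are set against the same wt arrays in these counts, which have no test.

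Some probe sets were bright in only 1 of the mutants. Of 724 probe sets under the filter level in svb embryos, 594 passed as higher in pri, and 138 of them reached a signal of 100 there. In wt embryos 388 of the 594 were also under the filter level. Of 440 under the filter level in pri embryos, 327 passed as lower, and 23 of them reached 100 in svb embryos. Here the wt mean was above the filter level for 241 of the 327. A probe set enters these counts only through the mutant in which it is bright, so that its direction is set by the filter.

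**Figure D2:**
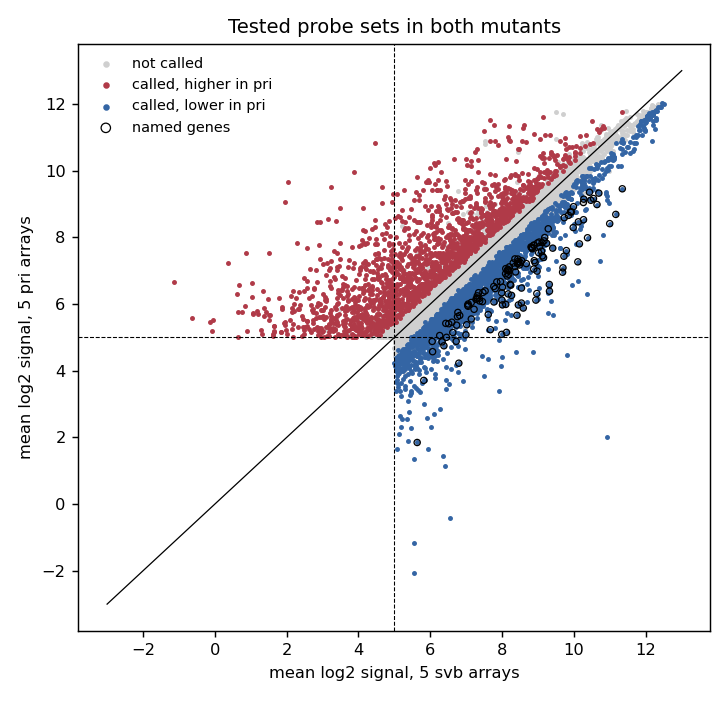
Mean log2 signal of each tested probe set in 5 svb arrays (horizontal) and 5 pri arrays (vertical), with probe sets that passed the limma threshold in red (higher in pri) or blue (lower in pri), named genes ringed, the diagonal of equal signal and dashed lines at the filter level of 5. The named genes all lie below the diagonal. More red points (480) than blue points (114) lie at least 4-fold from it.

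The largest differences by fitted value lay in probe sets without a name in the sources used here, so that their genes are not given. Probe set 1625897_s_at had a signal of 2069 ± 801 in svb embryos and 5.08 ± 3.07 in pri embryos (SD, n = 5). The fall was at least 60.7-fold (limma adjusted p = 3.96e-07). Its svb arrays gave 1961, 1069, 3241, 2334 and 1739 and its pri arrays 2.19, 1.30, 7.22, 7.64 and 7.05, with a wt mean of 2221. The signal was thus near the floor on each pri array and bright on each array of the other genotypes. In the opposite direction, 1641307_at was at 4.62 ± 2.42 in svb and 811 ± 99.8 in pri embryos (SD, n = 5), at least 25.2-fold higher (limma adjusted p = 6.35e-08), with a wt mean of 256. For this probe set wt lay between the mutants. The fitted rise of 1626830_at was larger still, but its signals (0.49 in svb, 103 in pri, 4.52 in wt) gave a smaller bound, at least 3.16-fold higher in pri. The fall of 1628989_at (49.5 in svb, 0.286 in pri, 1.26 in wt), the next largest by fitted value, was at least 1.47-fold.

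All named genes pointed downwards, as their selection required. Of the 132 that were tested, 131 fell in pri against svb embryos (percent of all tested probe sets lower, 22.1%) and 0 rose, with a median of 2.57-fold, or 2.49-fold with the 8 genes under the filter level in pri at their bounds. In 115 of the 132 the pri and svb arrays did not overlap and pri was the lower, against 13.8% of all tested probe sets in that direction (30.3% in either). In the 124 named genes at or above the filter level in pri, the pri signal was between 12.2% and 49.6% of the svb signal. It was under 20% in 19 genes, from 20% to 35% in 32, from 35% to 45% in 44 and above 45% in 29. The other 10 lay under that level in pri and are left out of these counts. Named genes made up 131 of the 731 probe sets at least 2-fold lower, 27 of the 114 at least 4-fold lower and 1 of the 35 at least 8-fold lower. In 58 of the 114 and 27 of the 35 the pri mean was under the filter level, where folds are unstable. The 1 named gene at 8-fold was CG14395, with a bound of only 1.55-fold. By fitted value most large falls thus had no name here, and any selected gene left out in naming counts among them.

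Genes that shape the apical extracellular matrix were among those with large falls. Zona pellucida (ZP) domain proteins are membrane-anchored matrix proteins that tie the apical surface of the growing trichome to the cuticle. Of 15 genes on the ZP list 6 were named, and 6 of 6 fell, by a median of 4.32-fold (3.15- to 7.63-fold), with no overlap between the mutants in any of them. Of all tested probe sets 22.1% were lower in pri, and 13.8% were lower without overlap. Counts of falls in this and each later list follow from the selection of the named genes and are not a result about the list. Miniature (m) gave signals of 611, 481, 498, 918 and 788 on the svb arrays and 79.0, 91.7, 90.5, 73.0 and 85.4 on the pri arrays. The pri arrays of m were all within a narrow band far below the lowest svb array, a log2 difference of -2.93 ± 0.19 (SE; limma adjusted p = 8.73e-07), or 7.63-fold. Morpheyus (mey) fell 7.17-fold, from 1039, 755, 1228, 1536 and 1104 to 134, 172, 170, 130 and 171 (limma adjusted p = 9.29e-07). In m the svb mean was itself 48.5% of wt and in mey 57.1%, so that pri embryos kept 6.17% and 7.82% of the wt signal.

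The ZP gene dusky-like (dyl) differed from m and mey in its svb level, which was 85.3% of wt. It gave 1552, 1706, 717, 1202 and 1828 in svb and 218, 174, 231, 383 and 315 in pri embryos, a 5.24-fold fall (limma adjusted p = 6.70e-05), with svb replicate 3 the lowest of its group and still above each pri array. Nyobe (nyo), the RefSeq neighbour of mey with 0 genes between them, fell 3.56-fold (limma adjusted p = 3.97e-06), from 476 ± 76.2 to 133 ± 13.2 (SD, n = 5). Trynity (tyn) fell 3.33-fold and neyo (neo) 3.15-fold (limma adjusted p = 0.000674 and 0.000102). Their lowest svb arrays were at 693 and 684 and their highest pri arrays at 558 and 398.

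The ZP genes belong to the known targets of Svb. Those known targets that entered the selected table number 16, and targets that did not enter it are not analysed here. Of the 16, 15 were tested and 15 fell, by a median of 3.96-fold against 2.57-fold over all named genes, or 3.56-fold with CG14395 at its bound. The median over all tested probe sets was -0.03 on the log2 scale. The difference between these medians has no test. Among other named genes, 19 had been classed as dependent on Svb by in situ hybridization, of which 18 fell (median 2.84-fold, or 2.73-fold with bounds). A further 7, CG15370, tpr, Mvd, wus, vri, qua and CG17562, had been examined in that way and not so classed, and 6 of the 6 tested fell (median 3.24-fold, or 3.18-fold with bounds). Falls in both classes followed from entry to the selected table, which required a difference of over 2-fold. Of all tested probe sets 22.1% were lower. CG4702, a target without a described role, was the brightest, at 1843, 2186, 2596, 2635 and 2316 in svb and 350, 438, 476, 411 and 399 in pri embryos. Its 5.56-fold fall (limma adjusted p = 3.45e-07) began from a svb level of 94.5% of wt. CG31559 behaved likewise, with 94.8% of the wt signal left in svb embryos and 14.3% in pri embryos, a 6.62-fold fall (limma adjusted p = 8.73e-07). For dsx-c73A the svb level was 50.1% of wt, and pri embryos fell by a further 3.96-fold (limma adjusted p = 4.32e-06). CG16798, at 146 ± 42.7 in svb and 47.2 ± 5.66 in pri embryos (SD, n = 5), fell 3.01-fold (limma adjusted p = 0.000128).

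The dimmest known targets reached the limit of the arrays. Shavenoid (sha), which is required for trichome outgrowth, was at 31.9, 22.4, 32.5, 27.1 and 34.4 in svb embryos and at 8.14, 7.86, 6.17, 9.18 and 8.22 in pri embryos. The arrays did not overlap, but the means of both mutants were under the filter level of 32, and sha was not tested and has no fold here. CG15370, which is not a known target, was likewise under that level in both, at 22.4 ± 7.26 and 3.63 ± 1.95 (SD, n = 5). CG14395 was just inside the filter, at 45.3, 33.4, 45.5, 56.6 and 77.5 in svb and 2.55, 2.41, 5.53, 5.23 and 3.39 in pri embryos. It was at least 1.55-fold lower (limma adjusted p = 1.38e-05), and its fitted 13.8-fold, the largest of the named genes, became a log2 difference of -1.74 with an offset of 16. The geometric mean in svb embryos was 21.2 for CG15370 and 29.3 for sha, just outside the filter, and 49.7 for CG14395 and 56.4 for CG13616, just inside it.

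**Figure D3:**
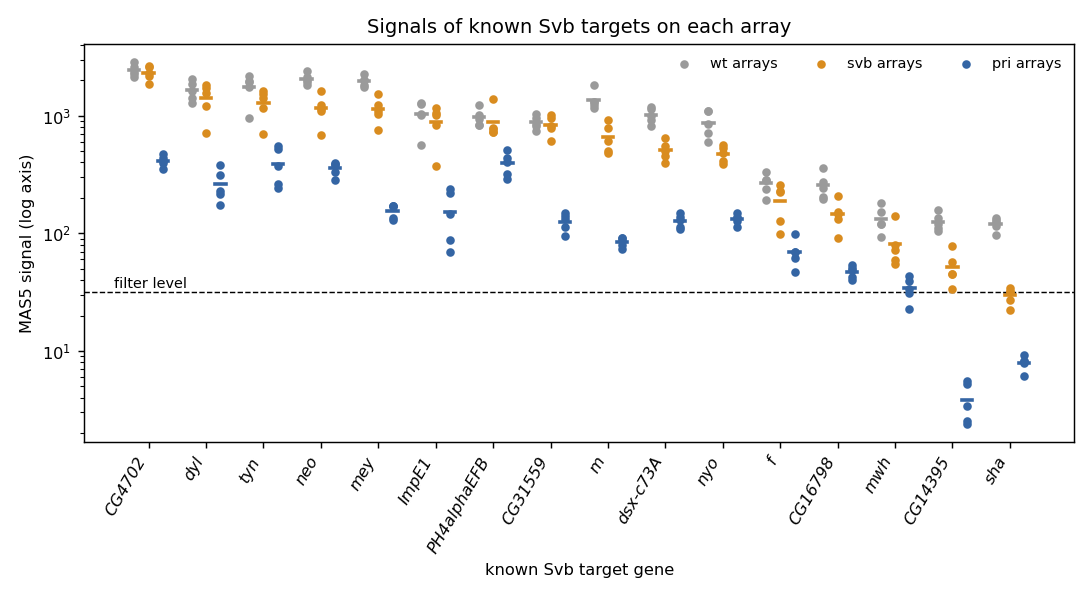
MAS 5.0 signal (log axis) of the 16 known Svb targets in the selected table on each wt (grey), svb (orange) and pri (blue) array, with a line at each group mean and a dashed line at the filter level of 32. The 5 pri arrays lie below the 5 svb arrays for each target, and sha and CG14395 are the only targets under the filter level in pri.

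The tested genes of the actin cytoskeleton fell by close to the 2-fold limit of selection. Of 33 genes on the list for actin and trichome growth 7 were named and 6 tested, and 6 of 6 fell, by a median of 2.28-fold (2.12- to 2.84-fold). The gene not tested was sha, which was under the filter level in both mutants, so that its fall is not part of this range. Forked (f), which bundles actin in bristles and hairs, gave 226, 227, 128, 97.9 and 255 in svb and 69.3, 47.3, 61.7, 97.9 and 70.0 in pri embryos. The lowest svb array and the highest pri array of f nearly met, at 97.90 against 97.86, and the fall was 2.60-fold (limma adjusted p = 0.00241). Multiple wing hairs (mwh), which limits where actin hairs form, fell 2.31-fold (limma adjusted p = 0.00368), from 72.3, 59.6, 80.3, 54.9 and 140 to 31.0, 33.6, 22.7, 43.4 and 39.7, with svb replicate 5 far above the rest of its group.

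Like f and mwh, the other 4 tested genes of that list had no svb array as low as a pri array. Rab23 and prickle (pk), which act in the planar polarity of wing hairs, fell 2.84-fold and 2.12-fold (limma adjusted p = 6.34e-05 and 0.000716). The filamin gene cheerio (cher) fell 2.19-fold, from 1247 ± 172 to 572 ± 88.3 (SD, n = 5; limma adjusted p = 0.000116). The villin-like gene quail (qua) fell 2.25-fold (limma adjusted p = 0.000185). In svb embryos these 4 were at 91.5%, 98.6%, 88.3% and 97.8% of wt, near the wt level, whereas sha was at 24.6%, mwh at 61.1% and f at 70.3%.

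Secreted and membrane-bound serine proteases act on the apical matrix and the cuticle. Of 11 genes on the list of serine proteases and inhibitors 7 were named, and 7 of 7 fell, by a median of 3.80-fold (2.41- to 7.07-fold), without overlap in any. Filzig (flz), a protease of the tracheal and epidermal cuticle, was at 683, 616, 330, 284 and 723 in svb and 75.1, 36.5, 79.9, 115 and 64.3 in pri embryos, a 7.07-fold fall (limma adjusted p = 7.82e-05). Within the svb group replicates 3 and 4 were the lowest for flz, and also for CG7173, on the same list, which gave 800, 689, 557, 370 and 916. CG7173 fell 6.61-fold (limma adjusted p = 1.91e-05) to 106, 64.0, 87.6, 143 and 97.0. CG1632, tpr, CG11836, CG4914 and the protease homologue masquerade (mas) fell 4.10-, 3.80-, 2.75-, 2.59- and 2.41-fold. In svb embryos flz was at 97.3% of wt and tpr at 43.5%, the extremes of the list, yet pri embryos kept a similar share of the wt signal, 13.7% and 11.3%.

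Oxidoreductases included the largest measured fall of a named gene above the filter level. Of 16 genes on that list 10 were named, and 10 of 10 fell, by a median of 2.92-fold, or 2.55-fold with CG9514 and CG17562, which lay under the filter level in pri, at their bounds of 2.60-fold and 2.51-fold. CG42331 was at 339, 276, 192, 200 and 468 in svb and 31.9, 29.7, 32.7, 39.3 and 46.5 in pri embryos, a 7.84-fold fall (log2 difference -2.97 ± 0.24, SE; limma adjusted p = 5.44e-06). CG3842 gave 202, 218, 302, 336 and 237 against 28.1, 29.1, 68.4, 23.6 and 34.8. Pri replicate 3 was the highest of its group for CG3842 and still far under each svb array, and the fall was 7.45-fold (limma adjusted p = 1.38e-05). CG3842 was at 99.2% of wt in svb embryos and CG42331 at 80.4%. Of the GMC-type oxidoreductases, CG9503 fell 4.01-fold (limma adjusted p = 1.70e-05) and CG9514 was at least 2.60-fold lower (limma adjusted p = 0.000146).

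Cuticle, chitin and tanning genes fell mildly, with exceptions. Of 21 on that list 8 were named, and 8 of 8 fell, by a median of 2.39-fold. The prolyl hydroxylase genes PH4alphaEFB and PH4alphaSG1 fell 2.21-fold and 2.17-fold (limma adjusted p = 0.00145 and 0.000792). Karmoisin (kar), a membrane transporter needed for eye pigment, was even over the svb arrays, at 322, 320, 383, 378 and 334, and less so over the pri arrays, at 116, 141, 153, 151 and 196, with a 2.32-fold fall (limma adjusted p = 0.000104). CG2663 fell 2.20-fold and the cuticle gene amd 2.45-fold (limma adjusted p = 0.00132 and 0.00158). The cuticle protein gene Tubby (Tb) was at least 3.30-fold lower (limma adjusted p = 0.00651), but its svb arrays ranged from 46.1 to 253 and its pri arrays from 19.0 to 45.7, so that the groups were separated by a narrow gap. CG12009 fell 4.55-fold (limma adjusted p = 0.00202), although svb replicate 4, at 284, lay within the pri arrays, which went from 105 to 308. CG12017, adjacent to CG12009 in RefSeq, fell 4.17-fold without overlap (limma adjusted p = 0.000339).

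Of 16 genes on the list for lipid and small-molecule metabolism 15 were named, and 15 of 15 fell, by a median of 2.58-fold (percent of all tested probe sets lower, 22.1%). Mevalonate diphosphate decarboxylase (Mvd) and HMG-CoA synthase (Hmgs) are enzymes of the mevalonate pathway, which makes isoprenoids and in flies no sterols. Mvd gave 443, 382, 316, 456 and 347 in svb and 53.1, 50.6, 72.4, 59.9 and 60.8 in pri embryos, a 6.54-fold fall with a small spread in both groups (log2 difference -2.71 ± 0.15, SE; limma adjusted p = 3.96e-07). Hmgs fell 3.15-fold, from 1608 ± 225 to 512 ± 88.4 (SD, n = 5; limma adjusted p = 1.03e-05), and the polyprenyl synthase gene Pdss2 fell 3.22-fold (limma adjusted p = 1.20e-05). All 3 were at 82.9% to 90.0% of wt in svb embryos. Cystathionine beta-synthase (Cbs) fell 3.64-fold (limma adjusted p = 3.84e-05), and the lipase gene Lip4, with 2.00-fold (limma adjusted p = 0.00282), was among the 5 smallest falls. The protein O-mannosyltransferase genes rotated abdomen (rt) and twisted (tw), which act as a pair on the same substrates, fell 3.66-fold and 2.37-fold (limma adjusted p = 3.89e-05 and 0.00013).

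Genes of the secretory pathway and of membrane traffic also fell by amounts near that limit. Of 28 genes on the list for the early secretory pathway 5 were named and 5 fell, by 2.17- to 2.56-fold. These were TRAM and SrpRalpha, which act in the entry of proteins into the endoplasmic reticulum, the COPII coat gene Sec23, the cargo receptor gene CHOp24 and the Golgi gene Gmap. TRAM fell 2.56-fold, SrpRalpha 2.41-fold, Sec23 2.27-fold and Gmap 2.25-fold (limma adjusted p = 0.000377, 0.000304, 0.000853 and 0.000849). For CHOp24 the lowest svb array, 271, lay under the highest pri array, 324 (limma adjusted p = 0.00511).

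Of 17 genes on the list for membrane traffic and septate junctions 5 were named and 5 fell, and 1 of them was an exception in size. Wurst (wus), a membrane protein of clathrin-mediated endocytosis, gave 300, 247, 376, 513 and 323 in svb and 39.9, 52.7, 59.2, 42.6 and 62.8 in pri embryos, a 6.73-fold fall (limma adjusted p = 2.84e-06) where the list's median was 2.25-fold. Past1, which acts in endocytic recycling, fell 2.13-fold (limma adjusted p = 0.00105). The septate junction gene crooked (crok) overlapped between the groups, and its 2.20-fold fall (limma adjusted p = 0.013) did not pass without svb replicates 3 and 4 (adjusted p = 0.0734).

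Genes of general cell function were also named. Of 20 mitochondrial ribosomal protein genes on the list 4 were named and 4 fell, by a median of 2.42-fold, but only mRpL45 did so without overlap. It gave 272, 291, 259, 342 and 223 against 54.6, 53.5, 83.7, 61.9 and 68.3, a 4.32-fold fall (limma adjusted p = 3.89e-06). Those of mRpL51, mRpL47 and mRpL46 were 2.48-, 2.36- and 2.19-fold. In each of these 3 svb replicate 5 was the lowest svb array and pri replicate 3 the highest pri array. The chaperonin subunit genes CCT4 and CCT1 fell 2.85-fold and 2.28-fold (limma adjusted p = 0.000757 and 0.00125), 2 of 8 subunits of the complex that were on the list. Fibrillarin (Fib), a nucleolar RNA methyltransferase, fell 2.04-fold (limma adjusted p = 0.00197). Together with CG11127, CG4678, Lip4 and PKD, it made up the 5 smallest falls, 2.00- to 2.04-fold, just above the limit of selection.

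Ecdysone, the moulting hormone, peaks during embryogenesis and acts on the forming cuticle. Of 24 genes linked to ecdysone or epidermal regulation 4 were named and 4 fell, by a median of 2.44-fold. The ecdysone-inducible gene ImpE1 gave 1049, 1019, 832, 376 and 1164 in svb and 222, 69.1, 145, 237 and 87.8 in pri embryos, a 6.09-fold fall (limma adjusted p = 0.000352), with svb replicate 4 the lowest svb array. Vri fell 2.66-fold (limma adjusted p = 0.00103) and the mitochondrial dehydrogenase gene scully (scu) 2.21-fold (limma adjusted p = 0.00101). The nuclear receptor gene Hr3 was the least secure of the 4. It ranged from 73.0 to 228 in svb and from 26.0 to 101 in pri embryos, and its 2.24-fold fall (limma adjusted p = 0.0358) did not pass when any 1 of 5 single arrays was left out, with adjusted p values from 0.062 to 0.0851, or in the fit of all 15 arrays (adjusted p = 0.0682).

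**Figure D4:**
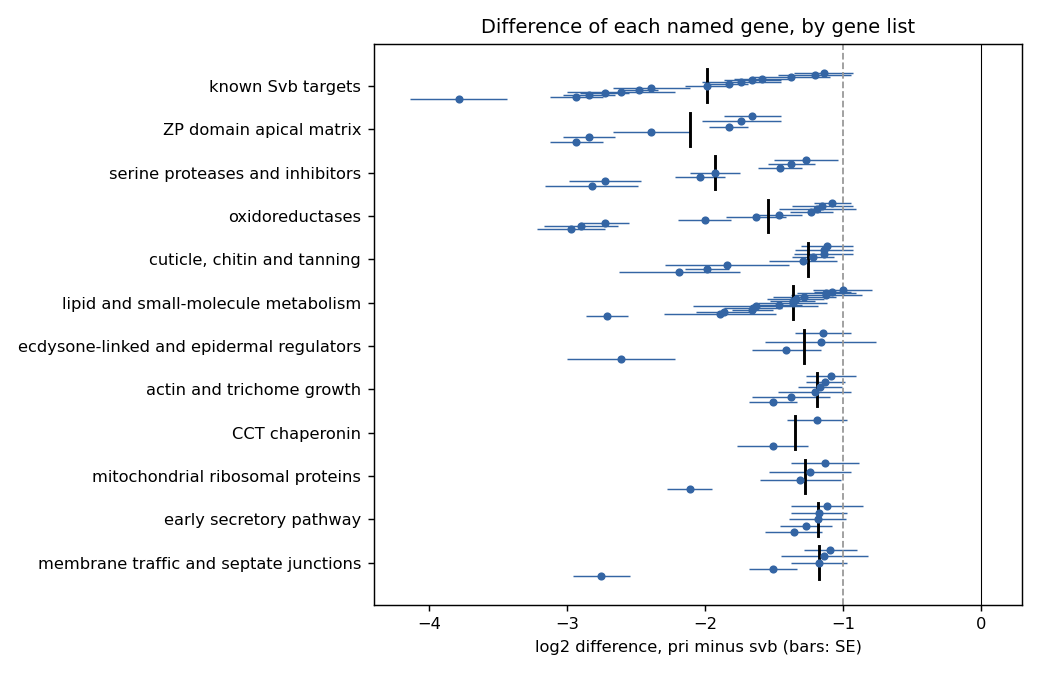
Log2 difference between pri and svb embryos for each tested named gene on the gene lists shown (points, with bars for 1 SE), with a vertical tick at each list's median and a dashed line at a 2-fold fall. Named genes on none of these lists are left out. Genes under the filter level in pri, such as CG14395, stand at their fitted value and not at their bound. The medians of the ZP genes, known Svb targets and serine proteases lie farther from 0 than those of the actin, secretory and membrane traffic genes. All genes shown had been selected for a difference of over 2-fold, some are on more than 1 list, and the order of the medians was not tested.

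Several of the largest falls were of genes on no list. The study annotates CG7860 with autophagic cell death and gives CG15506, CG14756 and CG13627 as unknown. CG15506 fell 6.28-fold, CG14756 5.99-fold, CG7860 5.69-fold and CG13627 5.58-fold (limma adjusted p = 7.31e-05, 3.26e-07, 5.24e-05 and 0.000114). CG14756 was bright and even, at 1750, 1906, 2294, 2411 and 1918 in svb and 306, 357, 396, 289 and 366 in pri embryos, with a svb level of 74.0% of wt. Under the filter level in pri lay CG5039, CG6785, CG13616 and CG17211, which were at least 3.47-, 2.09-, 1.76- and 2.07-fold lower (limma adjusted p = 2.57e-05, 0.00391, 0.0113 and 0.00104).

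The named genes were close to wt in svb embryos and far from it in pri embryos. The median svb signal was 88.7% of wt and the median pri signal 31.0%, values that share the same wt arrays and follow from the selection. Known targets had less left in svb embryos, a median of 59.1% of wt, and 15.7% in pri embryos. Oxidoreductases were at 80.6% and 23.9%, serine proteases at 78.0% and 18.9%, and early secretory genes at 92.3% and 39.0%. Signals under the filter level entered these medians as measured.

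With all arrays included, signals varied more among svb than among pri arrays. The median SD on the log2 scale was 0.33 over svb arrays and 0.26 over pri arrays in all tested probe sets, and the svb SD was the larger in 67.5% of them, or in 46.9% without svb replicate 4. Among the named genes the svb SD was the larger in 65.2%, or in 53.8% without that array. Svb replicates 3 and 4 were the 2 highest svb arrays in 44.7% of the named genes and in 26.9% of all tested probe sets. Svb replicate 4 was the lowest svb array in 15.9% of the named genes and in 33.8% of all tested probe sets.

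A few named genes differed several-fold between svb arrays. CG13616 had the widest range, 8.0-fold, with 46.3, 24.8, 143, 167 and 20.8, and its pri arrays went from 8.61 to 23.1. CG13082 ranged 6.60-fold, with 228, 106, 611, 696 and 233 in svb and 86.3, 138, 86.6, 67.1 and 120 in pri embryos. In both, svb replicates 3 and 4 were far above the other svb arrays, and the lower svb arrays came close to or within the pri arrays. CG9184 gave 1665, 1376, 5343, 6100 and 1599 and CG8420 gave 644, 441, 1232, 1484 and 824, the same 2 arrays being highest, yet in these the pri arrays, at most 890 and 223, remained below each svb array. Without svb replicates 3 and 4 the log2 difference went from -1.63 to -0.88 for CG13082 (limma adjusted p = 0.0128 and 0.0416) and from -1.89 to -1.13 for CG9184 (limma adjusted p = 0.00315 and 0.000471).

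CG10591 was the only tested named gene that did not pass. Its svb arrays gave 870, 476, 3314, 3199 and 635 and its pri arrays 484, 587, 763, 374 and 508, a log2 difference of -1.22 ± 0.51 (SE; limma adjusted p = 0.074). Without svb replicates 3 and 4 the difference was -0.28 (adjusted p = 0.397). The reverse pattern was found for Tb and CG12009, in which svb replicate 4 was the lowest svb array. Without svb replicates 3 and 4 the count of named genes that fell was 127 of 131 tested, and CG13616 was then under the filter level in both mutants.

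**Figure D5:**
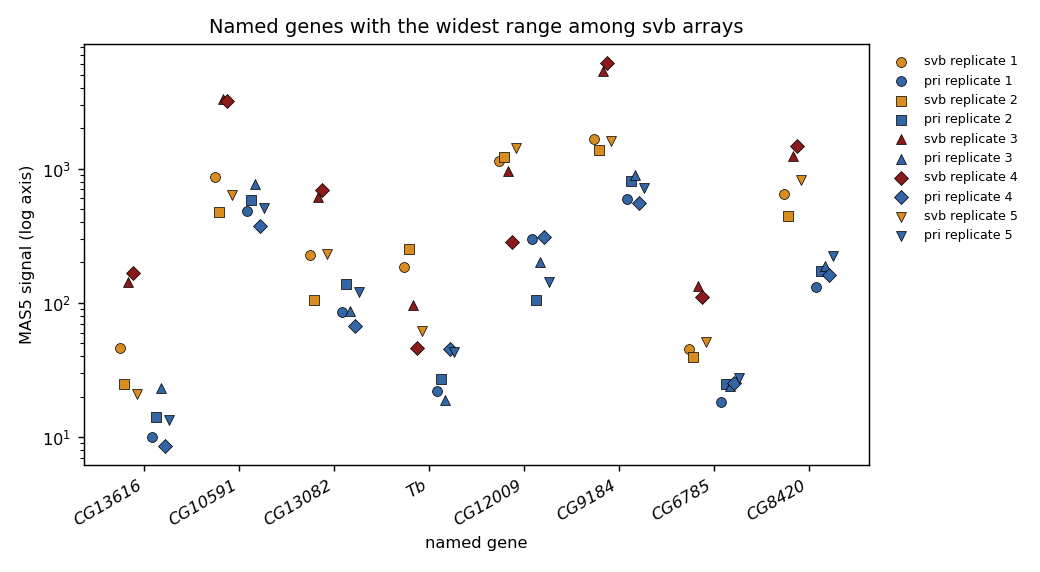
MAS 5.0 signal (log axis) on each svb array (orange, with replicates 3 and 4 in dark red) and each pri array (blue) for the 8 named genes with the widest range among svb arrays, with 1 symbol per replicate. In CG13616, CG10591, CG13082, CG9184, CG6785 and CG8420 svb replicates 3 and 4 are the highest svb arrays, whereas in Tb and CG12009 svb replicate 4 is the lowest.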

How the data were processed

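Total RNA of 200 hand-genotyped embryos per sample was hybridised to Affymetrix Drosophila Genome 2.0 arrays, 1 array per sample. The authors deposited linear intensities, computed with MAS 5.0 in Expression Console 1.1, with global scaling, so that the trimmed mean of every array was 100.002 to 100.003. Such scaling assumes equal total signal between genotypes, and signals of dim probe sets, down to 0.0198, are unstable. Detection calls, scan dates and scanner files were not used here. No genome build is given for the probe annotation in the sources used here, so no coordinates are printed.

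Signals were transformed to log2 with no offset. Of 18952 probe sets, 183 array controls were left out, and 8554 were tested whose mean log2 signal was at least 5 (a signal of 32) in either mutant. The 5 pri and 5 svb arrays were fitted in R 4.3.3 with limma 3.58.1 (lmFit, then eBayes with a trend), and p-values were adjusted by Benjamini and Hochberg over all tested probe sets, with a threshold of 0.05. Fold values come from this fit. Percentages compare mean signals. For genes dimmer than the filter level in pri, that level replaced the pri mean, which makes the fold a lower bound. Exact permutation tests of array measures were run in Python 3.11.15 with scipy 1.17.1. A simulation drew normal values with the same mean for both mutants in each probe set and a spread averaged over them. In it the fit recovered 66 of 100 probe sets changed 2-fold and 92 of 100 changed 4-fold, with 6 false calls among 8554. Far fewer probe sets were changed there than the 42.5% that passed here, and an array that stood apart was not simulated. These counts therefore do not give the error rates of this comparison.

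Gene names came only from the authors' second deposited table of 149 selected genes, joined to probe sets by its 15 signals (relative tolerance 1e-05). In all, 145 entries matched 1 probe set and 4 matched none. Leaving out 9 entries with several symbols, 1 whose symbol and identifier name different genes and 1 repeat left 134 genes, of which 34 received the current RefSeq symbol (assembly Release 6 plus ISO1 MT). Named in the text were, by rule, the 15 largest falls with no overlap and both means above the filter level, all named genes under that level in pri, all named known Svb targets, up to 4 genes of each other list by adjusted p, the 5 smallest falls, and genes that missed the threshold. All other genes named were chosen after their values were seen. The genes, lists and comparison were chosen with earlier results of these data known.

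Alternatives were a fit over all 15 arrays, quantile normalisation, median centring, an offset of 16, a filter at 6.5 or none, eBayes without a trend, array weights, the replicate number as a block, and leaving out each array. Leaving out svb replicates 3 and 4 together, and a filter on both group means, were added after seeing the data. Replicate numbers did not pair the samples.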

Additional observations from a re-analysis of the deposited data

Results flagged for a closer look

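In 268 sets of 5 arrays, 1 set per named gene and mutant, 5 held an array that lay apart from the rest by Dixon's 95% criterion on the log2 scale, where chance gives about 1 in 20 sets. Svb replicate 4 was that array in 3 of them. PH4alphaEFB had a signal of 1392 on svb replicate 4 and 724 to 783 on the other svb arrays. Sec23 was at 673.6 there and at 403 to 445 on the others. CG12009 was at 284 there and at 956 to 1432 on the others. Svb replicate 5 gave 64.3 for Acat1, against 109 to 134 on the other svb arrays. Pri replicate 4 gave 46.6 for St4, against 34.8 to 37.8 on the other pri arrays.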

How the results depend on the processing

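All 132 tested named genes, which had been selected for this direction on the same arrays, kept it under each alternative in which they were tested. Of 131 that fell, 4 lost the threshold somewhere: Hr3 in 6 settings, CG6180 in 5 and crok and CG31717 in 1, while CG10591 gained it in 3 (adjusted p = 0.0403 over all 15 arrays, 0.0227 without svb replicate 2, 0.0466 without svb replicate 5). In a fit of only the probe sets with both group means at the filter level, 1108 were higher in pri, against 1743. The 4-fold counts moved most. For falls they were 61 with an offset of 16, 350 with no filter and 56 with both means at the filter level, against 114. For rises they were 232 with the offset, 302 with the filter at 6.5, 779 with no filter and 160 with both means at the filter level, against 480. The share of rises among 4-fold differences, 80.8%, was 69.0% with no filter and at least 73.9% in every other setting. Leaving out 1 array gave 1473 to 1946 probe sets lower, 1504 to 1737 higher, 129 to 131 named genes lower, and 104 to 126 lower and 379 to 551 higher by at least 4-fold.

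Same-numbered svb and pri samples deviated together with r of 0.34, -0.43, 0.26, -0.37 and 0.02, and 2 of 5 correlated best with their own number. With the replicate block 1514 probe sets were lower, 1453 higher and 131 named genes lower, with 4-fold counts of 114 and 485, and no named gene lost its call. Signals near background limit the dim probe sets, and sha and CG15370 have no fold for that reason.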
